A study of Mus musculus with 36 samples.

Results

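Peroxisomes oxidise fatty acids that mitochondria handle poorly, and 33 genes of the mouse that build these organelles, move substrates across their membrane or carry out the oxidation are described here in intestinal organoids. The genes were chosen by symbol with earlier results of these data known, so contrasts of their shares and medians with all genes are descriptive only. All 33 were found among the 12652 genes of the expression table and passed the filter on low values that left 11361 genes for testing. Of the 33, 13 were peroxins, the PEX proteins of organelle assembly, and 20 were membrane transporters, enzymes and catalase.

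The organoids were epithelial cultures from the intestine of 2 wild-type C57BL/6 male littermates aged 8 weeks, with 1 organoid culture per mouse. Single cells, 50000 per well, were grown for 3 days with added inhibitors of ROCK and GSK3 and medium conditioned by Wnt3a-secreting cells. On day 3 the cultures were moved to ENR medium (with EGF, Noggin and R-Spondin) without these and received 9-cis retinoic acid (9cisRA, 10 µM), its all-trans isomer (atRA, 10 µM), an antagonist of the retinoid X receptor (RXRi, 5 µM) or the vehicle DMSO, and RNA was taken at 6 h and 24 h. A set taken at 0 h had neither compound nor DMSO, so vehicle, medium change and time cannot be told apart in changes since 0 h. Each of the 9 conditions had 4 libraries, from RNA purified in duplicate (3 pooled wells each) for each mouse, so n = 2 mice throughout. The model takes out the constant difference between the 2 cultures. The p-values measure only how unevenly the conditions differed between these cultures, pooled over the 9 conditions.

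Peroxins import folded proteins: soluble receptors bind cargo in the cytosol, dock at a membrane pore and are recycled by a ubiquitin ligase and an ATPase complex, while another set of peroxins inserts membrane proteins and a further one elongates and divides the organelle. Inside, very long, branched and dicarboxylic fatty acids are shortened by beta-oxidation, branched phytanic acid is prepared by alpha-oxidation, and the hydrogen peroxide formed is removed by catalase. Many of these genes are known targets of PPAR alpha, a nuclear receptor that binds DNA with the retinoid X receptor, and in the small intestine absorptive enterocytes are the cells known for high fatty acid oxidation.

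Levels are in RPKM, the reads of a gene divided by its length and by a divisor for each library. Library values are given in the order mouse 1 (both duplicates) and then mouse 2, and means carry the SD over n = 2 mice. Differences are log2 fold changes ± SE computed after adding 0.5 to each RPKM value, so that changes of low genes come out too small, and a gene is said to have risen or fallen where limma's p, adjusted over all 11361 genes, was below 0.05. Recovered reads per library numbered 19640305 to 30686200. The divisor of the deposited values was not this read sum. It lay above the recovered reads in all libraries at 0 h and below them in all libraries at 24 h. Relative to the reads, it was lowest with the isomers at 24 h. The deposited scaling therefore gives these isomer libraries higher levels than read sums would. How the divisor was set was not tested. The lowest count of any member in any library was 78 reads, and duplicates correlated across genes at r = 0.995 to 0.998. The tissue label was checked against markers: all 8 epithelial markers were present (summed level 6565 to 12702 RPKM), whereas 9 of 12 markers of fibroblasts, endothelium, immune cells and glia were not in the table and the other 3 summed to 4.39 to 8.69 RPKM. Fewer cells of a type and less RNA per cell cannot be told apart in such bulk samples. Enterocyte markers (18 genes, none at 0 in every library) differed in summed level between conditions. At 24 h they summed to 25230 to 33828 RPKM with 9cisRA, 20230 to 28979 with atRA, 3437 to 5534 with RXRi and 11897 to 19052 with DMSO, against 1711 to 2451 RPKM at 0 h. Gene by gene, 9 of 17 tested rose and 4 fell with 9cisRA, 4 rose and 5 fell with atRA, and 17 fell with RXRi. The sums hide such splits, and the shares of all genes stand with the 24 h results below. Of 10 proliferation markers, 9 fell with 9cisRA, 9 with atRA and 10 with RXRi at 24 h, and tuft cell markers (3 of 8 in the table) summed to 15.4 to 17.4 RPKM with RXRi against 2.85 to 3.27 with DMSO. Paneth cell markers (8 genes) summed to 303 to 407 RPKM with 9cisRA, 257 to 524 with atRA and 95.2 to 274 with RXRi, against 404 to 572 with DMSO. Stem cell markers (8 genes) summed to 64.7 to 75.3 RPKM with 9cisRA, 72.4 to 80.7 with atRA and 124 to 128 with RXRi, against 107 to 119 with DMSO. Goblet cell markers (8 genes) summed to 593 to 749 RPKM with 9cisRA, 616 to 692 with atRA and 676 to 1044 with RXRi, against 592 to 664 with DMSO at 24 h. Enteroendocrine markers (6 of 8 in the table) summed to 36.3 to 37.8 RPKM with 9cisRA, 34.3 to 42.8 with atRA and 31.1 to 37.1 with RXRi, against 31.7 to 36.3 with DMSO. The part of these cell markers in the results was not tested.

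**Figure D1:**
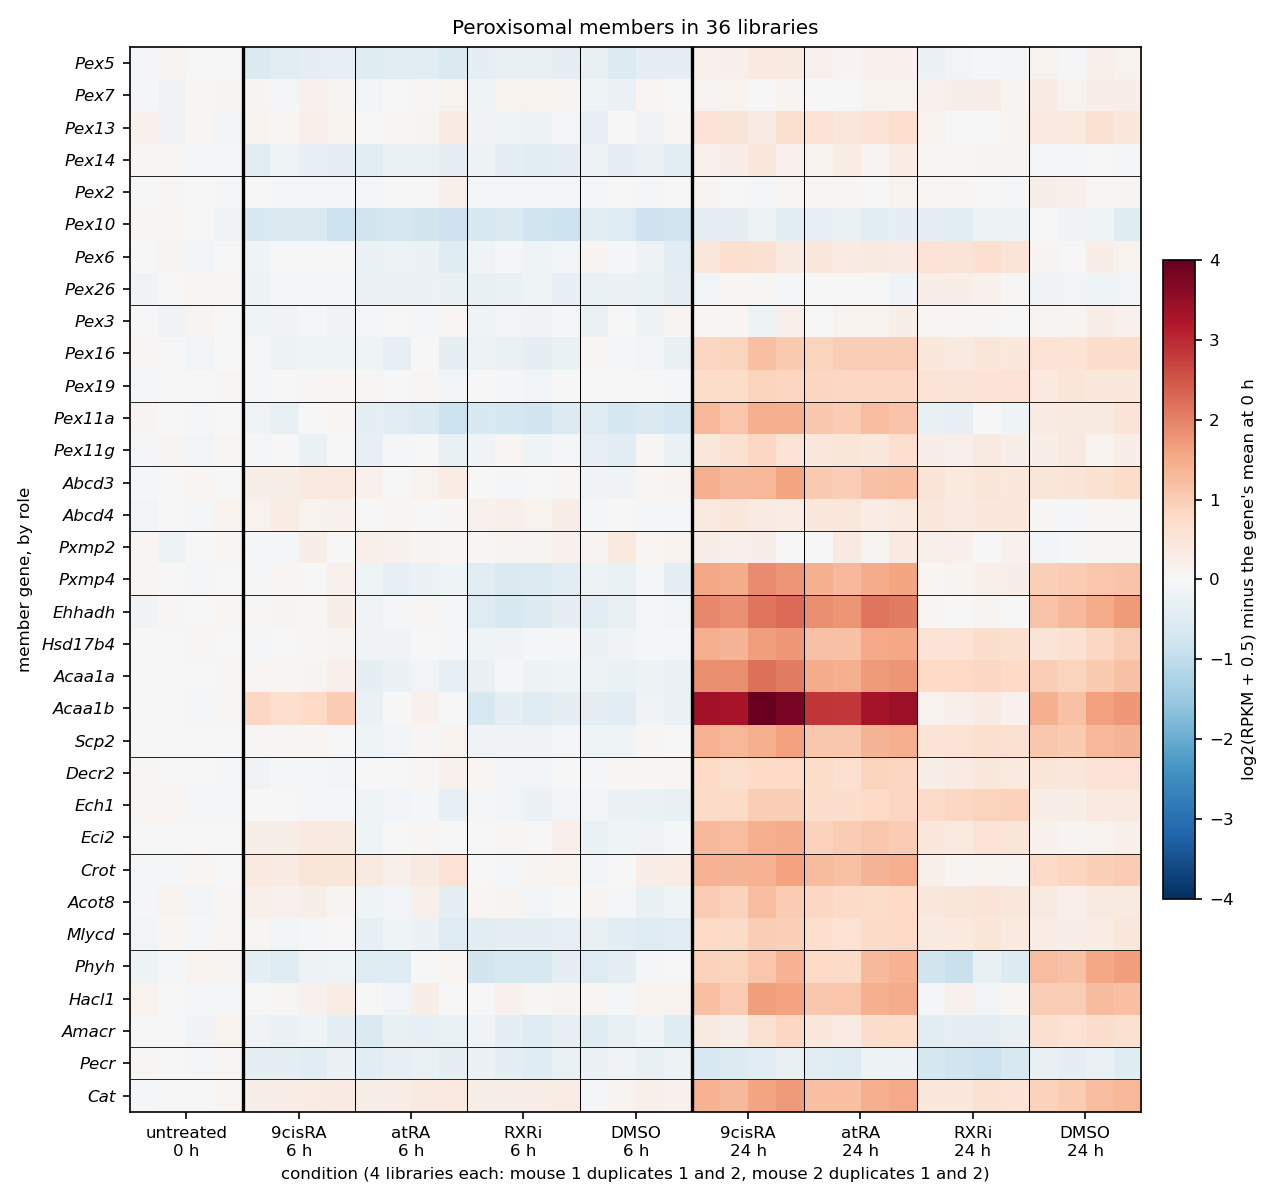
Level of each of the 33 genes (rows, by role) in each of 36 libraries (columns), as log2(RPKM + 0.5) minus the gene's mean at 0 h, with red above and blue below 0 h. The highest mean of a row falls with 9cisRA at 24 h for 19 of the 33 genes and at 6 h for 0, which was not counted over all genes.

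Levels per gene length differed widely among members. At 0 h Ech1, which isomerises dienoyl-CoA, had the highest mean level at 125 ± 9.02 RPKM, followed by the transporter Abcd3 at 77.8 ± 2.74, the bifunctional enzyme Hsd17b4 at 45.9 ± 0.84 and catalase (Cat) at 44.5 ± 1.66 RPKM, the last pair being close to each other. Hacl1, the lyase of alpha-oxidation, had the lowest at 1.78 ± 0.151 RPKM. Across the 9 conditions, 19 of 33 members had their highest mean with 9cisRA at 24 h, 4 with atRA at 24 h, 3 with RXRi at 24 h, 5 with DMSO at 24 h and 2 at 0 h. No member was highest at 6 h in any condition. The same was not counted over all genes, so these numbers do not show a trait particular to the members.

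In vehicle cultures part of the members were below the starting level at 6 h, and most were above it at 24 h. At 6 h of DMSO 14 of 33 members fell and 0 rose against 0 h, where 45.7% of all tested genes passed the test (22.3% rose and 23.4% fell). The median log2 fold change of the members was -0.15, against -0.01 for all genes tested. At 24 h, 25 of 33 rose and 1 fell against 0 h (59.4% of all genes passed, 29.2% rose and 30.3% fell), with a median of 0.39 against -0.01 for all genes. Between 6 h and 24 h of DMSO, 29 rose and 0 fell (49.9% of all genes passed, 25.4% rose). The 17 tested enterocyte markers all rose between 0 h and 24 h, with a median log2 fold change of 2.93, and all 10 proliferation markers fell.

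The widest rises since 0 h were those of enzymes. Acaa1b, a thiolase that completes each round of beta-oxidation, had 37.8, 32.1, 45 and 47.1 RPKM at 24 h of DMSO, against 14.1, 13.8, 13.6 and 14.3 at 0 h, a change of 1.49 ± 0.12 (adjusted p = 4.36e-07). Ehhadh, the bifunctional enzyme that acts on dicarboxylic acids, had 27.8, 30.7, 35.4 and 41.4 RPKM at 24 h and 11.2, 12.8, 12.2 and 13.1 at 0 h, a change of 1.41 ± 0.09 (adjusted p = 2.28e-08). All 4 libraries at 24 h lay above all 4 at 0 h for both genes, and mouse 2 gave the higher values at 24 h. Phyh, the hydroxylase that opens alpha-oxidation of phytanic acid, had 58.3, 55.3, 71.6 and 78.3 RPKM at 24 h against 21.2, 23.3, 26.8 and 26.6 at 0 h (1.40 ± 0.08, adjusted p = 1.45e-08). Scp2, which carries lipids and supplies the thiolase for branched chains, had 75.5, 74.8, 90.2 and 91.5 RPKM at 24 h against 35.3, 36.1, 35.3 and 35.6 at 0 h (1.20 ± 0.08, adjusted p = 3.84e-08). Catalase had 85.4, 89.7, 106 and 113 RPKM at 24 h against 42.5, 44.2, 44 and 47.5 at 0 h (1.13 ± 0.07, adjusted p = 2.04e-08). None of these 3 overlapped between the times.

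Hacl1, Pxmp4 (a membrane protein of the Pxmp2 family), Acaa1a, Crot (which converts shortened acyl-CoA to carnitine esters for export) and Hsd17b4 rose by 1.11, 1.05, 1.02, 0.90 and 0.73 on the log2 scale at 24 h of DMSO. Of the peroxins, 8 of 13 rose at 24 h against 0 h, between 0.16 for Pex2 and 0.63 for Pex16, and 0 fell. Over all genes 29.2% rose and 30.3% fell. In either direction 8 of 13 peroxins passed, close to the 59.4% of all genes. Under scaling to read sums, 4 peroxins rose and 3 fell, and the calls of Pex2, Pex3, Pex7 and Pex11g were lost. The split of all members changed to 20 risen and 4 fallen. Pecr, a reductase of fatty acid chain elongation, was the 1 member that fell, with 6.31, 6.04, 6.55 and 5.59 RPKM at 24 h against 8.24, 7.86, 7.46 and 8.18 at 0 h (-0.35 ± 0.08, adjusted p = 0.0021), and the libraries did not overlap.

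The furthest falls at 6 h were those of 2 peroxins. Pex10, part of the ubiquitin ligase that recycles receptors, had 4.8, 4.43, 3.48 and 3.61 RPKM at 6 h of DMSO against 6.96, 7.03, 6.46 and 5.89 at 0 h (-0.64 ± 0.10, adjusted p = 0.000293). Pex11a, which elongates the membrane before division, had 4.91, 4.17, 4.59 and 4.25 RPKM at 6 h against 7.72, 6.97, 6.73 and 7.06 at 0 h (-0.61 ± 0.11, adjusted p = 0.000494). Neither overlapped between the times. At 24 h of DMSO Pex11a averaged 9.49 ± 0.546 RPKM against 7.12 ± 0.316 at 0 h and passed the test as a rise (0.39). Pex10 averaged 5.73 ± 0.768 RPKM against 6.58 ± 0.582 at 0 h and did not pass (-0.19).

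**Figure D2:**
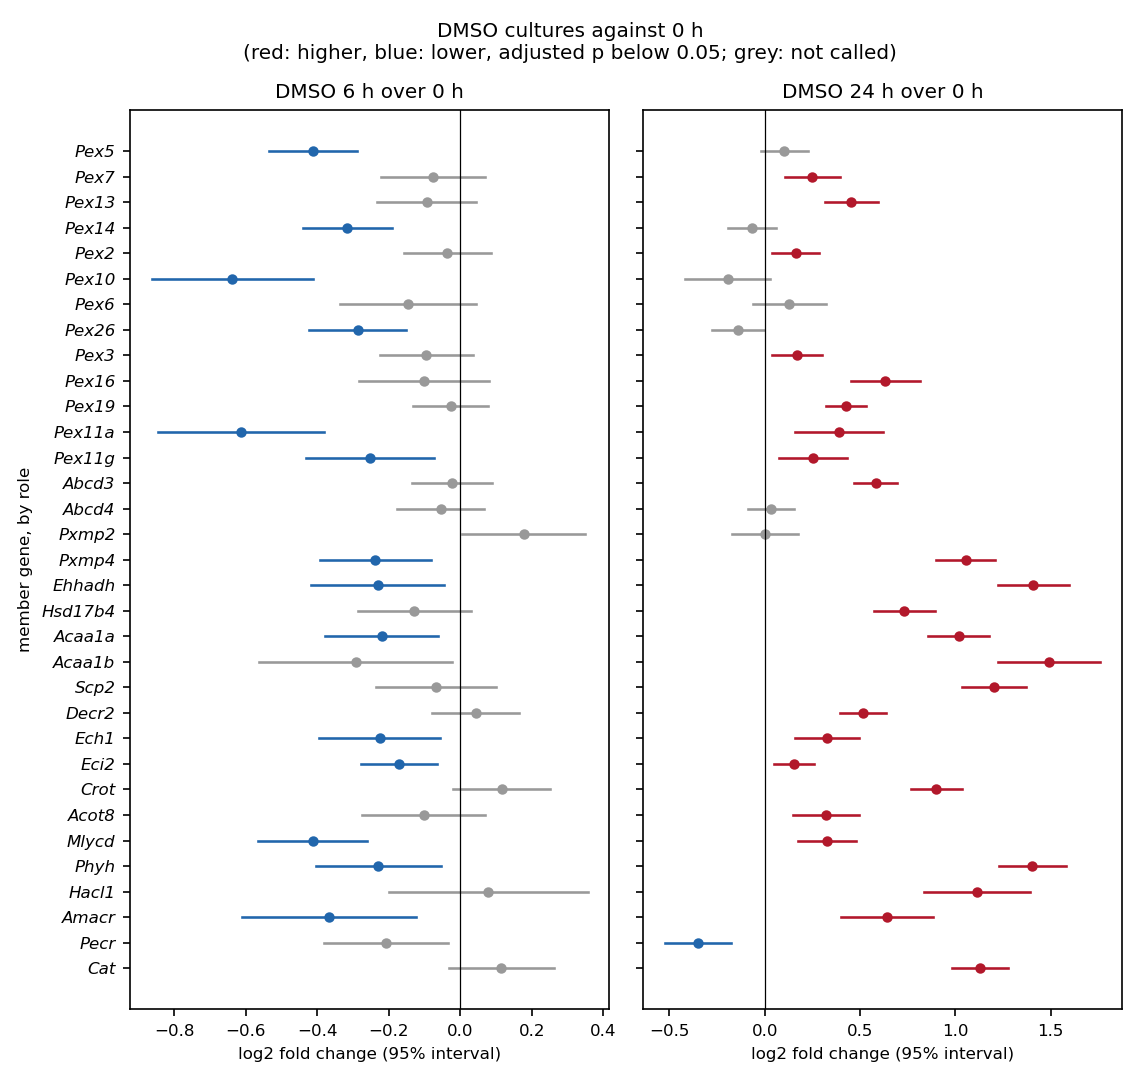
Log2 fold change of each member (rows, by role) in DMSO cultures at 6 h (left) and 24 h (right) over 0 h, with 95% intervals, red for risen, blue for fallen and grey for not past the threshold. At 6 h the 14 that passed lie left of 0, and at 24 h Pecr is the 1 that passed left of 0.

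Most members rose with each retinoic acid isomer at 24 h relative to vehicle, and more fell than rose with the antagonist. With 9cisRA 22 of 33 rose and 1 fell, where 47.9% of all genes passed (24.4% rose and 23.5% fell), and the members' median log2 fold change was 0.35 against 0.00 for all genes. With atRA 20 of 33 rose and 1 fell, where 38% of all genes passed (19.4% rose and 18.6% fell), and the median was 0.26 against 0.00. With RXRi 7 rose and 18 fell, where 61.5% of all genes passed (31.1% rose and 30.4% fell), and the median was -0.14 against 0.00. The 3 comparisons share the DMSO libraries, and RXRi was given at another dose than the isomers, so their values are set side by side. Scaling to read sums, which moved the median of all genes to -0.12 with 9cisRA, gave 19 risen and 6 fallen with 9cisRA and 17 and 3 with atRA. Of 17 enterocyte markers, 9 rose and 4 fell with 9cisRA, 4 rose and 5 fell with atRA, and 17 fell with RXRi, with the shares of all genes as given above for each compound. The 9cisRA split of these markers was 5 and 6 under read-sum scaling and 5 and 5 under quantile normalization, and that of atRA 3 and 5 and 1 and 6.

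**Figure D3:**
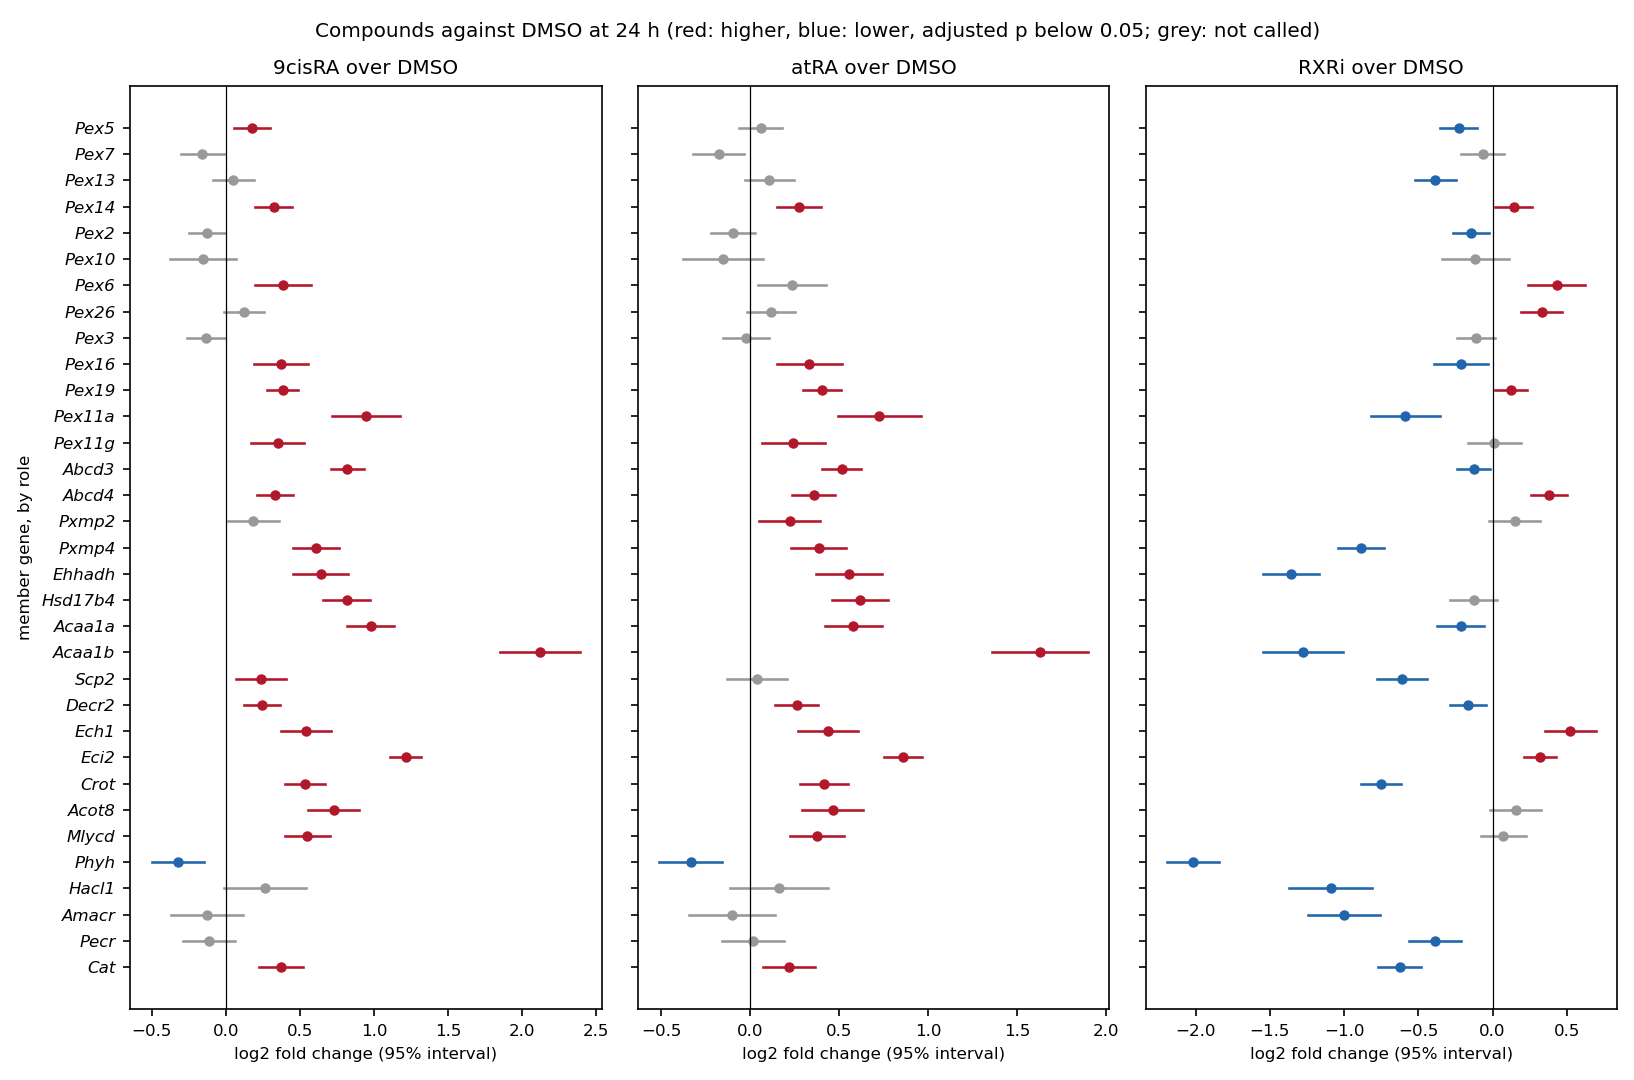
Log2 fold change of each member (rows, by role) over DMSO at 24 h with 9cisRA (left), atRA (middle) and RXRi (right), each panel with its own axis, with 95% intervals, red for risen, blue for fallen and grey for not past the threshold. Acaa1b lies farthest right with both isomers, at 2.12 and 1.63, and Phyh farthest left with RXRi, at -2.02.

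Among the core enzymes of beta-oxidation Acaa1b gave the widest spread. At 24 h it had 147, 141, 229 and 202 RPKM with 9cisRA, 105, 101, 145 and 158 with atRA, 15.6, 16.2, 17.6 and 15.7 with RXRi and 37.8, 32.1, 45 and 47.1 with DMSO. The log2 fold change over DMSO was 2.12 ± 0.12 with 9cisRA, 1.63 ± 0.12 with atRA and -1.27 ± 0.12 with RXRi (adjusted p = 8.13e-08, 1.16e-06 and 1.10e-06). Every isomer library lay above and every RXRi library below all DMSO libraries, and the mouse 2 cultures were higher than those of mouse 1 with both isomers. Its paralogue Acaa1a encodes another thiolase and differed less, at 110, 110, 141 and 128 RPKM with 9cisRA, 84.9, 81.6, 99.3 and 104 with atRA, 52.2, 52.7, 54 and 52.8 with RXRi and 59.4, 56, 62.8 and 68.1 with DMSO. The changes were 0.98 ± 0.07, 0.58 ± 0.07 and -0.21 ± 0.07 (adjusted p = 6.20e-07, 6.45e-05 and 0.0219), without overlap with DMSO in any of the 3. The fall with RXRi was not past the threshold with the mouse block left out or with mouse 2 left out.

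The bifunctional enzymes parted under the antagonist. Ehhadh had 48.4, 45.2, 56.2 and 61.5 RPKM with 9cisRA, 45.7, 42.9, 55.8 and 53.9 with atRA, 13.1, 12.3, 13.2 and 12.5 with RXRi and 27.8, 30.7, 35.4 and 41.4 with DMSO. It rose with 9cisRA (0.64 ± 0.09, adjusted p = 6.29e-05) and with atRA (0.55 ± 0.09, adjusted p = 0.000295) and fell with RXRi (-1.36 ± 0.09, adjusted p = 1.41e-08), with no overlap with DMSO. Hsd17b4, the enzyme for very long and branched chains, had 126, 118, 147 and 153 RPKM with 9cisRA, 105, 104, 131 and 134 with atRA, 67.9, 66.8, 74.7 and 71.6 with RXRi and 66.5, 70, 81.6 and 90.7 with DMSO. Both isomers gave a rise, with 9cisRA (0.82 ± 0.07, adjusted p = 2.50e-06) and atRA (0.62 ± 0.07, adjusted p = 3.63e-05), whereas the RXRi and DMSO libraries overlapped and the difference of -0.13 ± 0.07 did not pass (95% interval -0.28 to 0.03). Scp2 had 93.3, 89.2, 98.5 and 111 RPKM with 9cisRA, 76.1, 75.6, 92.4 and 97.5 with atRA, 52.3, 53.1, 55.8 and 54.3 with RXRi and 75.5, 74.8, 90.2 and 91.5 with DMSO. It fell with RXRi (-0.61 ± 0.08, adjusted p = 1.38e-05) without overlap, and the isomer libraries overlapped those with DMSO. Its rise of 0.24 ± 0.08 with 9cisRA (adjusted p = 0.0215) was not past the threshold under quantile normalization, read-sum scaling or without the mouse block.

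**Figure D4:**
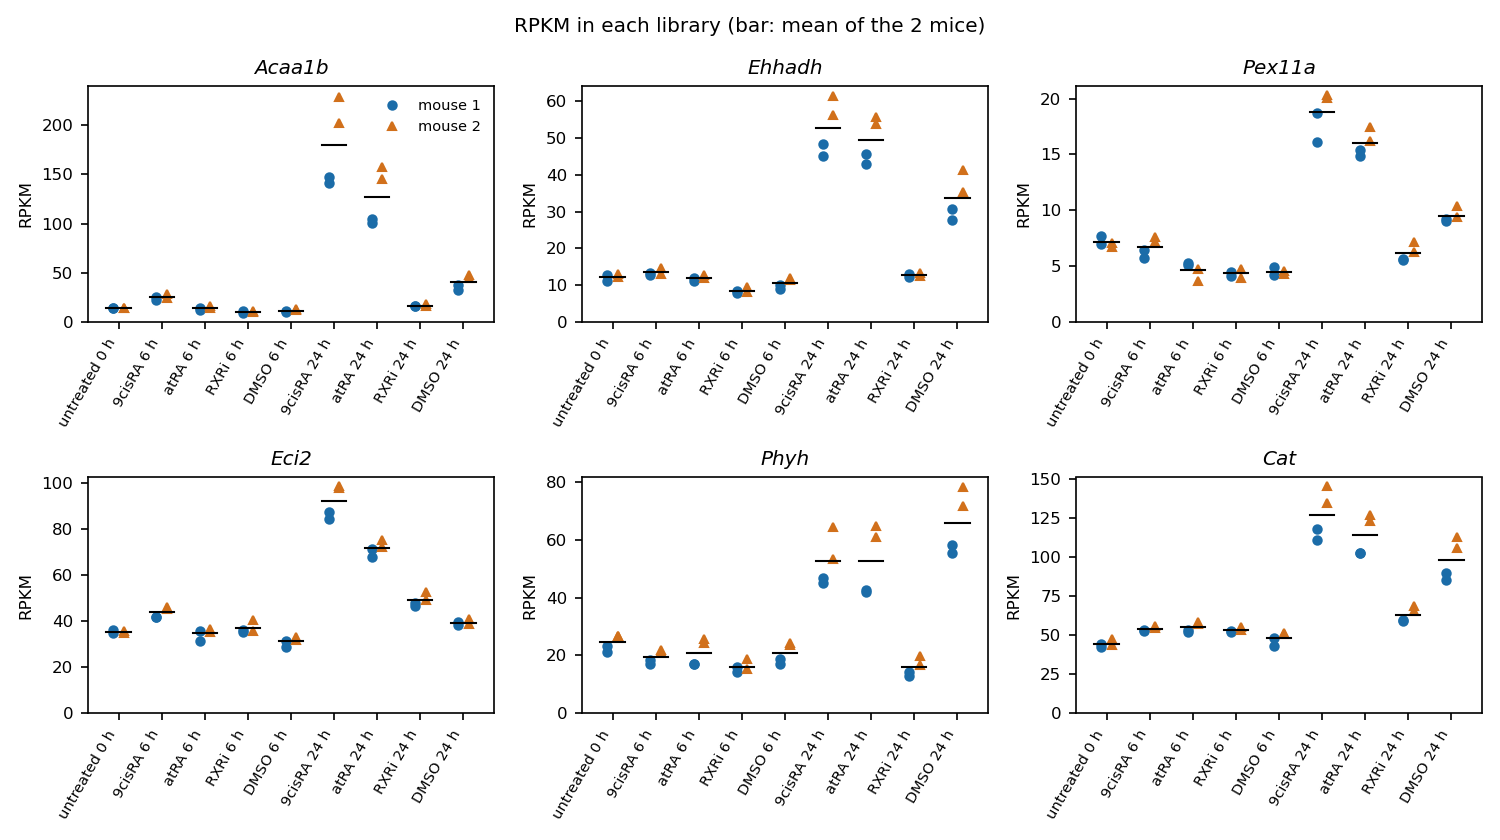
RPKM of 6 members in each library by condition, with circles for mouse 1, triangles for mouse 2 and a bar at the mean of the 2 mice. Acaa1b, Ehhadh, Pex11a, Eci2 and Cat peak with 9cisRA at 24 h, and Phyh with DMSO at 24 h.

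Of the 3 enzymes for unsaturated chains, Eci2 and Ech1 rose with all 3 compounds. Eci2, an enoyl-CoA isomerase, had 87.2, 84.1, 97.6 and 98.7 RPKM with 9cisRA, 67.7, 71.4, 74.9 and 72 with atRA, 47.8, 46.6, 52.7 and 49.2 with RXRi and 39.4, 38.3, 38.7 and 40.7 with DMSO at 24 h. It rose by 1.21 ± 0.05, 0.86 ± 0.05 and 0.32 ± 0.05 (adjusted p = 2.58e-09, 8.56e-08 and 8.40e-05). Ech1 had 214, 211, 246 and 246 RPKM with 9cisRA, 203, 205, 216 and 227 with atRA, 212, 224, 231 and 237 with RXRi and 149, 152, 164 and 163 with DMSO. It rose by 0.54 ± 0.08, 0.44 ± 0.08 and 0.52 ± 0.08 (adjusted p = 0.000112, 0.000847 and 6.11e-05). All compound libraries lay above all DMSO libraries for both genes. Decr2, the dienoyl-CoA reductase, rose by 0.24 with 9cisRA and 0.26 with atRA and fell by 0.16 on the log2 scale with RXRi. Its 9cisRA call was lost under read-sum scaling and its RXRi call without the mouse block or mouse 2.

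Of the enzymes that prepare branched chains, none rose with an isomer, and all 3 fell with RXRi. Phyh had 46.8, 45.2, 53.4 and 64.5 RPKM with 9cisRA, 42.8, 41.8, 61 and 64.8 with atRA, 14.4, 13, 19.8 and 16.6 with RXRi and 58.3, 55.3, 71.6 and 78.3 with DMSO. It fell with 9cisRA (-0.32 ± 0.08, adjusted p = 0.00535), with atRA (-0.34 ± 0.08, adjusted p = 0.00587) and with RXRi (-2.02 ± 0.08, adjusted p = 1.69e-10). The isomer libraries overlapped those with DMSO, and their falls were lost without the mouse block (with atRA also without mouse 1), whereas the RXRi libraries lay below all others at 24 h. Hacl1 had 4.75, 4.13, 6.69 and 6.48 RPKM with 9cisRA, 4.28, 4.42, 5.55 and 5.9 with atRA, 1.72, 2.05, 1.6 and 1.9 with RXRi and 4.03, 4.02, 4.98 and 4.71 with DMSO, and fell with RXRi (-1.09 ± 0.13, adjusted p = 6.80e-06). Amacr, the racemase that makes branched acyl-CoA fit for oxidation, had 5.67, 5.2, 6.9 and 8.09 RPKM with 9cisRA, 5.95, 5.54, 7.26 and 7.45 with atRA, 3.13, 3.25, 3.21 and 3.44 with RXRi and 7.04, 6.73, 7.38 and 6.92 with DMSO, and fell with RXRi (-1.0 ± 0.11, adjusted p = 4.34e-06). Neither gene overlapped between RXRi and DMSO, and both overlapped between each isomer and DMSO. The isomer differences did not pass, at 0.27 and 0.16 for Hacl1 and -0.13 and -0.10 for Amacr with 9cisRA and atRA.

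Catalase had 118, 111, 135 and 146 RPKM with 9cisRA, 103, 103, 123 and 127 with atRA, 59.5, 59.3, 68.8 and 65.7 with RXRi and 85.4, 89.7, 106 and 113 with DMSO. Its level rose with 9cisRA (0.37 ± 0.07, adjusted p = 0.000641) and atRA (0.22 ± 0.07, adjusted p = 0.0236), with overlapping libraries, and fell with RXRi (-0.63 ± 0.07, adjusted p = 3.10e-06) without overlap. The rise with atRA was not past the threshold under quantile normalization, read-sum scaling or without the mouse block. Pecr had 4.72, 4.39, 4.18 and 4.94 RPKM with RXRi against 6.31, 6.04, 6.55 and 5.59 with DMSO (-0.39 ± 0.08, adjusted p = 0.0009), without overlap, and did not pass with 9cisRA (-0.11) or atRA (0.01).

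Of the 4 membrane proteins, 3 rose with both isomers and Pxmp2 with atRA alone of the 2. Abcd3, which imports acyl-CoA, had 209, 190, 196 and 232 RPKM with 9cisRA, 162, 154, 174 and 178 with atRA, 111, 102, 110 and 105 with RXRi and 108, 112, 118 and 130 with DMSO. This transporter rose with 9cisRA (0.82 ± 0.05, adjusted p = 1.50e-07) and atRA (0.51 ± 0.05, adjusted p = 9.43e-06) without overlap. With RXRi the libraries overlapped those with DMSO, and the fall of -0.13 ± 0.05 (adjusted p = 0.0468) was lost in 25 of 50 alternatives. It did not hold under quantile normalization, with no intensity trend, with only the conditions compared, or without the mouse block or mouse 2. Leaving out 1 library ended it for each of 20 libraries. Abcd4, a relative of Abcd3 known for vitamin B12 export from lysosomes, had 9.59, 9.95, 9.1 and 8.88 RPKM with 9cisRA, 9.68, 10, 8.99 and 9.55 with atRA, 10.1, 9.3, 9.78 and 9.69 with RXRi and 7.44, 6.93, 7.61 and 7.42 with DMSO. It rose with each, by 0.33 ± 0.06, 0.36 ± 0.06 and 0.38 ± 0.06 (adjusted p = 0.000359, 0.00031 and 5.44e-05), and no compound library reached down to the DMSO range. Pxmp4 had 34.4, 33.1, 43.6 and 39.8 RPKM with 9cisRA, 31.6, 28.7, 32.7 and 35.2 with atRA, 12.2, 12.5, 13.4 and 13.7 with RXRi and 22.8, 23.9, 25.3 and 25.6 with DMSO. Its changes of 0.61 ± 0.07, 0.38 ± 0.07 and -0.89 ± 0.07 all passed (adjusted p = 2.14e-05, 0.00113 and 1.69e-07), without overlap. Pxmp2, a membrane channel, stayed between 7.37 and 10.5 RPKM in the 24 h libraries, and its rise of 0.22 with atRA was lost under read-sum scaling and without either mouse or the block.

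Genes of export and CoA release also rose with both isomers. Crot rose by 0.54 with 9cisRA and 0.41 with atRA and fell by 0.75 on the log2 scale with RXRi, at means of 30.6 ± 1.9, 28.1 ± 2.7, 12.2 ± 0.176 and, with DMSO, 21 ± 1.8 RPKM. Acot8, which frees acids from CoA, rose by 0.73 and 0.46 with 9cisRA and atRA. Mlycd, which breaks down malonyl-CoA, rose by 0.55 and 0.37. Neither of the last pair passed with RXRi (0.15 and 0.07).

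Among the peroxins at 24 h, 7 of 13 rose and 0 fell with 9cisRA, 5 rose and 0 fell with atRA, and 4 rose and 5 fell with RXRi. Over all genes the shares that rose and fell were 24.4% and 23.5% with 9cisRA, 19.4% and 18.6% with atRA, and 31.1% and 30.4% with RXRi, so the RXRi split of the peroxins (30.8% and 38.5%) lay near that of all genes. In either direction, 5 of 13 peroxins passed with atRA, close to the 38% of all genes. With 9cisRA 7 of 13 passed, where 47.9% of all genes did, so with the isomers the peroxins differed from all genes mainly in direction. Under read-sum scaling the peroxin splits were 6 and 4, 4 and 2, and 2 and 5. The other 20 members gave 15 risen and 1 fallen with each isomer and 3 risen and 13 fallen with RXRi. Pex11a led the peroxins, with 18.7, 16.1, 20.3 and 20.1 RPKM with 9cisRA, 15.4, 14.9, 17.5 and 16.2 with atRA, 5.65, 5.57, 7.13 and 6.28 with RXRi and 8.99, 9.21, 9.36 and 10.4 with DMSO. Its changes were 0.95 ± 0.11, 0.72 ± 0.11 and -0.59 ± 0.11 (adjusted p = 1.67e-05, 0.00021 and 0.000333), and no compound library overlapped the DMSO range. Its relative Pex11g rose less, by 0.35 with 9cisRA and 0.24 with atRA, and did not pass with RXRi (0.01). The atRA call was lost in 13 of 50 alternatives, among them no mouse block, read-sum scaling and leaving out either mouse, and the 9cisRA call was lost without mouse 2.

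The genes of receptor recycling differed among themselves. Pex6, the ATPase that pulls receptors from the membrane, had 17.4, 21, 20.1 and 16.8 RPKM with 9cisRA, 17.4, 16.6, 16.7 and 16.6 with atRA, 19.5, 18.7, 20.9 and 18.6 with RXRi and 14.1, 13.1, 15.7 and 14.3 with DMSO. It rose with 9cisRA (0.38 ± 0.09, adjusted p = 0.00314) and with RXRi (0.43 ± 0.09, adjusted p = 0.000805), and the difference with atRA did not pass (0.23 ± 0.09, adjusted p = 0.0523) although the libraries did not overlap. Pex26, its membrane anchor, had 9.13, 9.24, 8.57 and 7.86 RPKM with RXRi against 6.76, 6.97, 6.58 and 6.92 with DMSO (0.33 ± 0.06, adjusted p = 0.000483), without overlap, and did not pass with the isomers (0.12 and 0.11). The ubiquitin ligase gene Pex10 did not pass with any compound at 24 h, and Pex2 passed with RXRi alone of the 3, at -0.14, a call lost under quantile normalization and without mouse 1 or the block.

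Of the peroxins of import and membrane assembly, Pex16 and Pex19 rose with both isomers under every alternative run. Pex5, the receptor for most matrix proteins, rose by 0.18 with 9cisRA, with overlapping libraries and not under read-sum scaling or without the block, and fell by 0.23 on the log2 scale with RXRi. Pex7, the other receptor, did not pass with any compound. In the pore, Pex13 fell by 0.39 with RXRi, and Pex14 rose by 0.32 with 9cisRA, 0.27 with atRA and 0.14 with RXRi, the last lost under most alternatives. For membrane proteins, the chaperone Pex19 rose by 0.38 with 9cisRA and 0.40 with atRA, and Pex16 by 0.37 and 0.33. With RXRi, Pex19 rose by 0.12 and Pex16 fell by 0.21, and both of these were lost in a fit with no intensity trend. The Pex19 call was lost in 18 of 50 alternatives, among them median-of-ratios and read-sum scaling and leaving out either mouse. That of Pex16 was lost in 10 of 50, among them quantile normalization. Pex3, the docking partner of Pex19, did not pass with any compound.

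At 6 h the response to 9cisRA already took in 11 of 33 members, all higher, where 8.04% of all genes passed (5.01% rose and 3.03% fell). The count was 5 with the mouse block left out. With atRA 1 member passed, Crot, where 4.66% of all genes passed (2.79% rose and 1.87% fell), and it had 14.3, 12.8, 14.1 and 16.5 RPKM with atRA against 10.2, 11.2, 13.2 and 13.5 with DMSO (0.26 ± 0.06, adjusted p = 0.0336), with overlapping libraries. That count was 0 without the mouse block and 0 to 3 with single libraries left out, among them 24 h libraries, which share the estimate of spread. With RXRi 2 rose and 3 fell, where 25.2% of all genes passed (10.6% rose and 14.6% fell), and 2 passed in all without the mouse block. Enterocyte markers summed to 2204 to 3348 RPKM with 9cisRA, 1358 to 2922 with atRA, 813 to 1428 with RXRi and 1259 to 2537 with DMSO at 6 h. Of 17 tested, 3 rose with 9cisRA, 0 passed with atRA and 15 fell with RXRi.

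Acaa1b also rose most at 6 h with 9cisRA. It had 25, 22.6, 24.5 and 28.6 RPKM with 9cisRA, 11.6, 14.1, 15.7 and 14.1 with atRA, 8.72, 10.5, 9.51 and 10.6 with RXRi and 10.7, 10.1, 12.7 and 11.8 with DMSO. It rose with 9cisRA (1.12 ± 0.12, adjusted p = 7.76e-05) without overlap, and the differences with atRA (0.28 ± 0.12, adjusted p = 0.228) and RXRi (-0.19 ± 0.12, adjusted p = 0.297) did not pass. Pex11a had 6.39, 5.74, 7.12 and 7.6 RPKM with 9cisRA, 5.25, 5.06, 4.69 and 3.66 with atRA and 4.91, 4.17, 4.59 and 4.25 with DMSO, and rose with 9cisRA (0.53 ± 0.11, adjusted p = 0.0076), again without overlap. Eci2 had 41.9, 41.5, 46.2 and 45.3 RPKM with 9cisRA, 31.5, 35.6, 36.3 and 35.4 with atRA and 28.9, 31.1, 31.9 and 33 with DMSO, and rose with 9cisRA (0.48 ± 0.05, adjusted p = 4.06e-05) without overlap. The other 8 that rose with 9cisRA were Mlycd (0.39), Acaa1a (0.34), Ehhadh (0.34), Abcd3 (0.33), Crot (0.31), Pxmp4 (0.29), Abcd4 (0.24) and Pex13 (0.23). The Pex13 call was lost in 24 of 50 alternatives, with an adjusted p of up to 0.457, and its libraries overlapped those with DMSO. With RXRi Eci2 (0.24) and Abcd4 (0.25) rose, and Phyh (-0.36), Ehhadh (-0.28) and Pxmp4 (-0.27) fell, with overlapping libraries for Phyh and Ehhadh.

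The isomers, which differ only in the geometry of a double bond and were given at the same dose, were compared directly at both times (2 comparisons, each adjusted over all genes). At 6 h 4 of 33 members were higher with 9cisRA than with atRA and 0 lower, where 1.72% of all genes passed (1.55% higher and 0.167% lower). At 24 h 3 were higher and 0 lower, where 0.467% of all genes passed (0.299% higher and 0.167% lower). Without the mouse block 0 passed at either time, and without single libraries the 6 h count ran between 2 (without duplicate 2 of mouse 2 with atRA at 6 h) and 7 (without duplicate 1).

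Acaa1b at 6 h had 25.2 ± 1.97 RPKM with 9cisRA against 13.9 ± 1.47 with atRA (n = 2 mice each), a difference of 0.84 ± 0.12 (limma, adjusted p = 0.00577). At 24 h its means were 180 ± 50.4 and 127 ± 34.5 RPKM, and the difference of 0.49 ± 0.12 did not pass (limma, adjusted p = 0.128, 95% interval 0.23 to 0.76). Acaa1a and Eci2 passed at both times. At 6 h Acaa1a had 32, 31.9, 32.6 and 35 RPKM with 9cisRA against 22.8, 25.7, 28.1 and 24 with atRA. Acaa1a differed by 0.38 ± 0.07 at 6 h and 0.40 ± 0.07 at 24 h (adjusted p = 0.0236 and 0.0376). Eci2 differed by 0.33 ± 0.05 and 0.36 ± 0.05 (adjusted p = 0.00577 and 0.00602). Pex11a passed at 6 h (0.49 ± 0.11, adjusted p = 0.0398) and Abcd3 at 24 h (0.31 ± 0.05, adjusted p = 0.0222). In all of these pairs that passed, every 9cisRA library lay above every atRA library, as the values by library above show for 24 h. These pairs were picked by the test on the same libraries, so this adds no separate support. Non-overlap was not counted over all genes. Whether the isomer difference itself changed between the times was not tested. For Ehhadh, which did not pass, the difference at 24 h was 0.09 ± 0.09 with a 95% interval of -0.10 to 0.27, and for Phyh it was 0.01 ± 0.08 with -0.16 to 0.19.

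**Figure D5:**
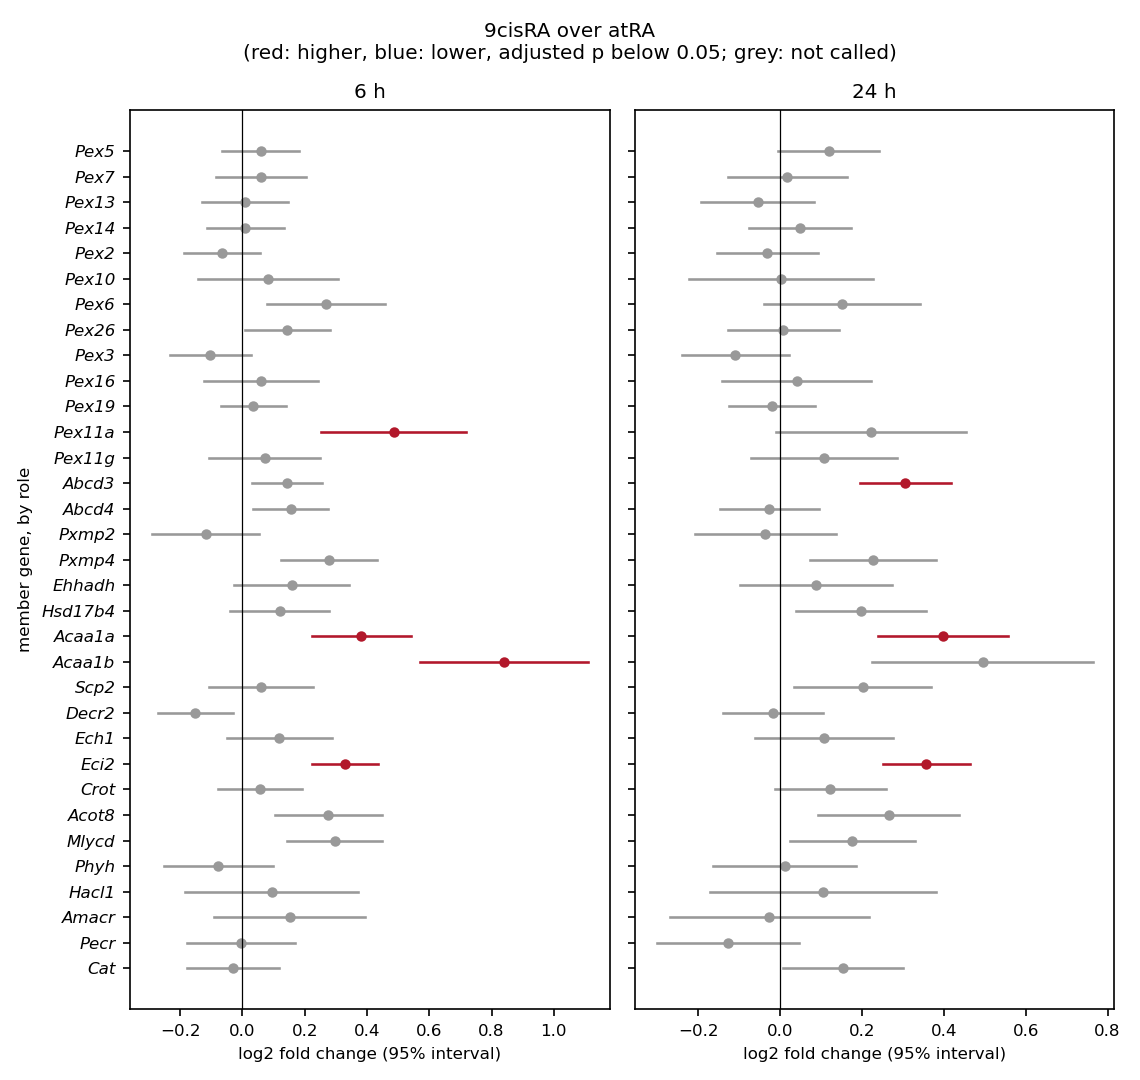
Log2 fold change of each member (rows, by role) with 9cisRA over atRA at 6 h (left) and 24 h (right), with 95% intervals, red where the adjusted p was below 0.05 and grey elsewhere. Acaa1b at 6 h lies farthest right at 0.84, and no member passed on the left of 0.

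The effect of each compound over its own DMSO control was also compared between 24 h and 6 h in the same model. The atRA effect was higher at 24 h for 14 members and lower for 0 (17.1% of all genes passed, 10% higher and 7.11% lower), and the 9cisRA effect was higher for 12 and lower for 1 (18%, of which 10.1% higher and 7.9% lower). Without the mouse block the atRA count was 8, and without duplicate 2 of mouse 2 with 9cisRA at 24 h, a library that shares the estimate of spread, it was 8 as well. Under read-sum scaling the splits were 8 and 2 for atRA and 9 and 3 for 9cisRA. The RXRi effect was higher for 3 and lower for 12 (35.1%, of which 18.6% higher and 16.5% lower). Acaa1b changed most with the isomers, by 1.35 ± 0.18 for atRA and 1.00 ± 0.18 for 9cisRA (adjusted p = 0.000622 and 0.00244). Phyh changed most with RXRi, by -1.65 ± 0.12 (adjusted p = 3.11e-07). Pex7 was the 1 member whose 9cisRA effect was lower at 24 h (-0.32 ± 0.09, adjusted p = 0.0316).

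Because Acaa1b and Acaa1a moved by such different amounts, the bases before their start sites are shown as RefSeq gives them on GRCm38.p6, with CCAAT boxes and GC boxes (CCAAT and GGGCGG, on either strand) in capitals. Acaa1a lies at chr9:119339676-119350299 on the plus strand and Acaa1b at chr9:119148023-119157093 on the minus strand. The stretch of Acaa1a is chr9:119341164-119341293 (plus strand) and that of Acaa1b chr9:119157094-119157223 (minus strand), each 130 bases long and ending just before a start site that RefSeq lists, which for Acaa1a lies inside the bounds of the gene.
Acaa1a: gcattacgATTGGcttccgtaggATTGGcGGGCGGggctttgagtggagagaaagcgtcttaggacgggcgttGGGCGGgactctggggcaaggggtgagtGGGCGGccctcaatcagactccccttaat
Acaa1b: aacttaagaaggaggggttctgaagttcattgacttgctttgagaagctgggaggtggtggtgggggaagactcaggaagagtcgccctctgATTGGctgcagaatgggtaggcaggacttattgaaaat
The Acaa1a stretch held 2 CCAAT boxes and 3 GC boxes and the Acaa1b stretch 1 and 0, whereas in the full 300-base windows both genes held 4 CCAAT boxes and the GC boxes numbered 3 and 0. Over the 250 bases before the start the genes were identical in 46.6% of 266 aligned columns, whereas their longest coding transcripts were identical in 84.5%. Of all 50-base words in these transcripts, 34% of those of Acaa1a and 35.5% of those of Acaa1b occurred in both, so reads could have been split between the paralogues in counting. Exons of Acaa1a also overlap Myd88 and those of Acaa1b overlap Dlec1, each on the opposite strand, and without stranded counting these reads cannot be told apart. The difference between the paralogues was not tested and is uncertain to that extent.

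The receptors of the retinoid X family bind DNA at the core motif AGGTCA, and the 300 bases around each start site (250 before and 50 after, RefSeq) were searched for it on both strands. Promoters were listed for 27 of the 33 members (31 promoters), and 4 members held the motif, Cat, Scp2, Pex11g and Phyh, or 12.9% of member promoters against 16.3% of all 32851 promoters. The motif in the first 3 lay before the start and is shown in capitals with its neighbouring bases. The position of that in Phyh is not given here. For Scp2 this is a start inside the bounds of the gene (chr4:108043839-108144998, minus strand), so its site is not upstream of the gene as a whole. The sites are chr2:103485340-103485369 (Cat), chr4:108118639-108118668 (Scp2) and chr8:3467804-3467833 (Pex11g), all on the minus strand of GRCm38.p6.
Cat: tgtgactctcagAGGTCAgagaacaccagc
Scp2: gtctaacacagtAGGTCAaaagaacccata
Pex11g: aacaggcttagaAGGTCAttctgggtgtcc
The tandem form AGGTCANAGGTCA, in which N is any base, was in 0 member promoters and in 0.0396% of all promoters, and the looser AGGNCANAGGNCA in 0 and 0.381%. CCAAT boxes were in 48.4% of member promoters against 37.4% of all, and GC boxes in 71% against 35.7%. Such matches describe letters only, and sites outside these windows were not searched.

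Beyond the 33 members, 67 other peroxisomal genes were listed, of which 56 were tested. At 24 h 29 rose and 4 fell with 9cisRA, 21 rose and 4 fell with atRA, and 11 rose and 28 fell with RXRi. These are 51.8% and 7.14% of the 56 with 9cisRA (24.4% and 23.5% of all genes), 37.5% and 7.14% with atRA (19.4% and 18.6%) and 19.6% and 50% with RXRi (31.1% and 30.4%). In either direction, 44.6% of the 56 passed with atRA against 38% of all genes. Under read-sum scaling the first of these splits became 19 and 14 and that of atRA 16 and 7. Acot5 (2.31 and 1.89), Acot3 (1.74 and 1.48) and Hsdl2 (1.24 and 1.09) rose most with 9cisRA and atRA, the first pair being thioesterases with close paralogues among which reads may be shared. With RXRi the transporter and acyl-CoA synthetase Slc27a2 fell furthest, at 0.27, 0.425, 0.77 and 0.482 RPKM against 14.9, 13.9, 19.4 and 23.8 with DMSO (-4.22 ± 0.21, adjusted p = 1.34e-09). Pipox (-3.63), an oxidase of pipecolic acid, and Xdh (-2.41), xanthine dehydrogenase, also fell, while Far1 (0.84), Paox (0.75) and Gstk1 (0.68) rose most with RXRi. Far1, which makes fatty alcohols for ether lipids, and Trim37, a ubiquitin ligase, fell with 9cisRA (-0.52 and -0.46) and with atRA (-0.44 and -0.43). Of these 56 genes, 35 rose and 4 fell between 0 h and 24 h of DMSO, where 29.2% of all genes rose and 30.3% fell. Under read-sum scaling that split was 33 and 10.

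The mitochondrial pathway was set beside the peroxisomal one. Of 17 genes of mitochondrial beta-oxidation, 12 rose and 0 fell with 9cisRA, 12 and 0 with atRA, and 9 rose and 5 fell with RXRi at 24 h. The risen shares were 70.6%, 70.6% and 52.9%, against 24.4%, 19.4% and 31.1% of all genes, and the fallen share with RXRi, 29.4%, was close to the 30.4% of all genes. Cpt1a, the gate of mitochondrial fatty acid entry, rose by 1.46 ± 0.05, 1.01 ± 0.05 and 0.52 ± 0.05 with 9cisRA, atRA and RXRi (adjusted p = 1.05e-09, 2.84e-08 and 8.49e-07). Slc25a20, the carnitine carrier, rose by 1.30, 1.07 and 0.35. Acaa2, the mitochondrial thiolase, rose by 0.98 with 9cisRA and 0.78 with atRA. Hadh, a short-chain dehydrogenase, fell by 1.20 with RXRi.

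Among the regulators, Ppara had 23.2, 22.7, 26.5 and 26.6 RPKM with 9cisRA, 22.9, 21.5, 24.9 and 22.6 with atRA, 4.83, 4.39, 5.5 and 5.34 with RXRi and 7.87, 8.9, 10.1 and 10.9 with DMSO at 24 h. It rose with 9cisRA (1.35 ± 0.08, adjusted p = 6.08e-08) and atRA (1.25 ± 0.08, adjusted p = 1.63e-07) and fell with RXRi (-0.84 ± 0.08, adjusted p = 5.27e-07). At 6 h the changes were 1.16, 0.85 and -0.57, and all 3 passed. Ppard rose by 0.84 with RXRi and did not pass with the isomers (-0.05 and -0.15). Pparg fell by 0.25 with 9cisRA and 0.21 with atRA and rose by 0.57 with RXRi. Rxra, a retinoid X receptor gene, rose by 0.17 with 9cisRA, did not pass with atRA (-0.01) and fell by 0.34 with RXRi.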

How the data were processed

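RNA was sequenced from 36 libraries, 4 for each of 9 conditions. The authors deposited RPKM values per gene. Per the submitters' processing notes, bcl2fastq 2.17, STAR 2.5.2b and the mm10 build were used. The counting tool, annotation and strand setting were not given in the sources used here, and exons of 14 of the 33 members overlap another gene.

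The deposited RPKM values were whole multiples of 1 read in 100% of values checked (tolerance 0.05 reads), which gave 19640305 to 30686200 reads per library. One read of a 2000-base gene was worth 0.0165 to 0.0244 RPKM. Duplicates correlated across genes at r = 0.995 to 0.998, 0 were identical, and they were averaged on the scale of log2(RPKM + 0.5) to 18 values.

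Genes at 1 RPKM or more in at least 4 of 36 libraries were tested with limma 3.58.1 (R 4.3.3), keeping the deposited scaling, with condition and mouse as terms, an intensity trend and Benjamini-Hochberg adjustment over 11361 genes. Residual degrees of freedom were 8, with a prior of 5.01. Mouse is the block because cultures of the same mouse share their source: their deviations from the condition means correlated at a median r of 0.441 (0.0372 to 0.662 over 36 pairs). For duplicate numbers the median was -0.0485 (-0.293 to 0.525).

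The members and lists were chosen with earlier results of these data known. Values by library are given for the called members with the largest changes, up to 5 higher and 5 lower, in the 24 h comparisons, and for called members that changed by at least 1 on the log2 scale in any. Other members given by library (Crot, Pex10) were chosen after their values were seen. Of the other lists, up to 3 called genes in each direction are named. A result for 1 gene of these lists is not reported here. The tests were checked on simulated data. Promoters came from RefSeq and were searched with Python 3.11.15, pandas 2.3.3, numpy 2.4.6 and Biopython 1.88, and plots were drawn with matplotlib 3.10.9. Alternatives were other pseudocounts (0.1 and 1), filters, scalings, designs and thresholds and leaving out mice or libraries. Read-sum scaling, in which each library is divided by its own sum of recovered reads, was added after seeing the data.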

Additional observations from a re-analysis of the deposited data

Results flagged for a closer look

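Single libraries stood apart from the other 3 of their condition in 5 of 162 sets of 4 libraries (3.09%). Eci2 (40.5 RPKM) and Scp2 (34.4 RPKM) did so in duplicate 2 of mouse 2 with RXRi at 6 h. Pex6 did so in duplicate 1 of mouse 1 with 9cisRA at 6 h (11.6 RPKM) and in the same duplicate with atRA at 24 h (17.4 RPKM), and Pex26 in duplicate 2 of mouse 2 with atRA at 24 h (6.84 RPKM).

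The effect of a compound over DMSO differed between 24 h and 6 h, by limma's test of that difference (adjusted p below 0.05), in 29 cases among the 18 members given by library under the rule. Each value is the 24 h effect minus the 6 h effect on the log2 scale. For 9cisRA they were Acaa1b 1.0, Eci2 0.73, Hsd17b4 0.66, Acaa1a 0.63, Abcd3 0.49, Ech1 0.36 and Pxmp4 0.32. For atRA they were Acaa1b 1.35, Eci2 0.71, Pex11a 0.68, Acaa1a 0.62, Hsd17b4 0.58, Pex6 0.39, Ech1 0.37, Pxmp4 0.37, Abcd3 0.33 and Abcd4 0.27. For RXRi they were Phyh -1.65, Hacl1 -1.09, Acaa1b -1.08, Ehhadh -1.07, Amacr -1.02, Cat -0.77, Pxmp4 -0.62, Scp2 -0.56, Pex11a -0.55, Ech1 0.44, Pex6 0.41 and Pex26 0.31. The Pex6 change with atRA was lost in 27 of 50 alternatives and the Pxmp4 change with 9cisRA in 26.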

How the results depend on the processing

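With 2 mice, p-values rest on how unevenly the conditions differed between 1 pair of cultures, and counts near the threshold move with the setting. The calls at 6 h and between the isomers moved most. For atRA at 6 h (1 member called) the count was 2 with median-of-ratios scaling, 3 with quantile normalization, 4 with 36 libraries as samples, 4 with mouse and duplicate number as a replicate block, 3 with only the conditions compared, 0 without mouse 1 (the duplicates of the other mouse then stand as samples), 0 without the mouse block, 5 without mouse 2 and 0 at an adjusted p under 0.01. Without single libraries it ran from 0 to 3, and 12 of 36 libraries moved it (0 without DMSO 6 h duplicate 1 of mouse 2, atRA 6 h duplicate 2 of mouse 2, RXRi 24 h duplicate 2 of mouse 1 or 9cisRA 24 h duplicate 2 of mouse 2). For 9cisRA at 6 h (11) the count fell to 6 without mouse 1, to 5 without the block and to 6 at 0.01. For RXRi at 6 h (5) it was 2 without the block and 3 at 0.01.

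Between 9cisRA and atRA at 6 h (4) the count was 0 without the mouse block, 8 with 36 libraries, 9 with mouse and duplicate number as a replicate block, 8 with only these conditions, 2 at 0.01, and 2 to 7 without single libraries. At 24 h (3) it was 0 without the mouse block, 7 with 36 libraries, 6 with that replicate block, 5 without mouse 2, 5 with only these conditions and 1 at 0.01. For DMSO at 6 h against 0 h (14) it was 6 at 0.01. For the change in the atRA effect (14) it was 6 without mouse 1, 8 without the mouse block, 5 at 0.01 and 8 to 17 without single libraries. For that in the 9cisRA effect (13) it was 6 with only these conditions and 7 at 0.01. The causes were not tested. The counts for the 3 compounds at 24 h, for DMSO at 24 h against 0 h and 6 h and for the change in the RXRi effect stayed within 1.5 times under every setting run. Leaving the block out changed no other count by more than 1.5 times. Over the named genes, 12398 of 12824 values stayed called or stayed not called, 251 lost the call and 175 gained it. No value turned direction where the gene was called in the main fit or the alternative (0 of 12824). Turns of direction among values called in neither were not counted.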
